A study of Rattus norvegicus with 3 samples.

Results

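The genes described here encode carriers and channels that move sodium and potassium across the last segments of the kidney tubule, kinases that set how active those are, and uromodulin, a protein secreted there. The 10 genes were chosen by name as a working list of distal sodium transport and WNK control, and array probes were assigned to them through the RefSeq accession printed for each probe. They are 10 of 26785 genes or transcripts on the array. All 10 had a probe, and 9 of them were among the 14183 genes bright enough to be tested.

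Kidney RNA of male Sprague-Dawley rats was compared between a control group and a group designated G200, whose drinking water contained, for 3 weeks, 200 ppm γ-aminobutyric acid (GABA), an inhibitory neurotransmitter that is also present in food. The rats were bought at 5 weeks of age, and both groups ate the same standard diet. The labels name 3 rats per group and non-tumor kidney tissue, and each of 3 two-color Agilent arrays held control RNA labelled with Cy3 (green) and G200 RNA labelled with Cy5 (red). No array had the dyes exchanged, so dye and treatment cannot be told apart in any ratio below.

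Sodium that escapes the proximal tubule is recovered in steps. The thick ascending limb takes it up with potassium and chloride, the distal convoluted tubule takes it up with chloride, and the connecting tubule and collecting duct take it up through the epithelial sodium channel. WNK kinases act through the kinases SPAK and OSR1 to switch the chloride-coupled carriers on, and aldosterone acts through its receptor and the kinase SGK1 to keep the sodium channel at the cell surface.

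Of the 42877 spots per array other than controls, 59.8%, 62.7% and 62.3% were well above background in the control color on replicates 1, 2 and 3, and 63.0%, 56.6% and 61.0% in the G200 color. No spot was saturated. Values are given as the log2 ratio of G200 over control after background correction and loess normalization between the dyes, so that a value above 0 means a higher level in G200. Levels in each color are given as normalized log2 intensity and are compared within a probe, except for the summed levels and brightest genes of the marker lists. The 3 control channels differed from one another by 0.737 to 1.00 times the squared difference predicted from replicate spots within an array, against 5.34 to 15.0 times in G200, over 1111 and 1087 probes with replicate spots. For this reason the control was treated as a single sample (n = 1), and the spread between control rats does not enter limma's test of the mean ratio against 0. Precision is limited by the number of arrays, 3, and the comparison of groups also by the single control sample.

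Among the 9 tested genes, limma called 2 higher in G200 (Umod and Sgk1) and 0 lower after Benjamini-Hochberg adjustment over all genes, where 11.5% of all genes tested were called higher and 26% lower. At an unadjusted p under 0.05 limma gave 3 higher and 1 lower, beside 2438 higher and 4523 lower of all 14183 genes. The methods' t-test was run on the log ratios and on the separate channels. Each form gave 1 higher and 0 lower without adjustment and 0 in either direction after it. Over all genes it gave, without adjustment, 1372 higher and 3100 lower on the log ratios and 1094 and 3114 on the channels. On all 3 arrays alike, 4 of the 9 genes had a ratio above 0, against 26.5% of all genes, and 1 had a ratio below 0, against 41.8%. The other 4 genes changed sign between arrays. The median of the 9 mean ratios was 0.15, with 0.28, 0.12 and 0.05 on replicates 1, 2 and 3, beside a median of -0.05 over all genes. Directions near 0 depend on the scaling between the dyes: the median over all genes was 0.27 when the arrays were only median-centred and 0.62 when the dyes were not normalized, and the median of the 9 genes was then 0.63 and 0.99.

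**Figure D1:**
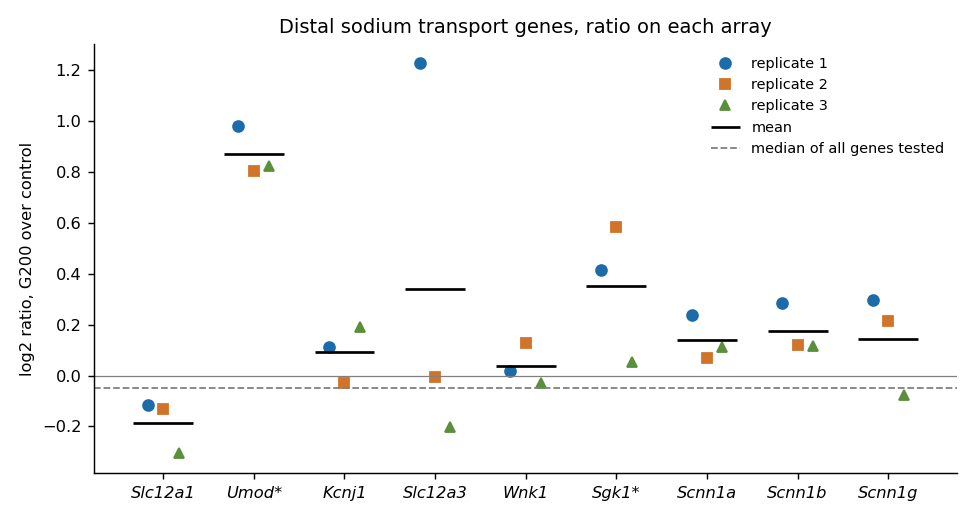
Log2 ratio of G200 over control for the 9 tested genes on each of 3 arrays (points), with the mean (black bar) and the median of all genes tested (dashed line, -0.05); an asterisk marks an adjusted p under 0.05 in limma's test. The 3 points of Umod lie between 0.81 and 0.98, those of Slc12a1 lie below 0 (their mean is 0.63 with median centring and 0.99 without dye normalization), and those of Slc12a3 are spread from -0.20 to 1.23.

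Umod gave the largest mean ratio of the list. It encodes uromodulin, the glycoprotein that cells of the thick ascending limb secrete into urine. The normalized log2 intensity of Umod was 14.66, 14.82 and 14.86 in the control and 15.64, 15.62 and 15.68 in G200 on replicates 1, 2 and 3. Every G200 value lay above the value of each control channel (counted as 1 sample), and the G200 values lay close together. The log2 ratio was 0.98, 0.81 and 0.82, on average 0.87 ± 0.10 (SD, n = 3; limma's adjusted p = 0.00102), higher in 3 of 3 arrays and at the 99.9th percentile of all genes tested. Its sign was positive under all 15 alternative settings, with means from 0.81 to 2.11. The call was lost only with the methods' t-test, at an adjusted p of 0.118 on the log ratios and 0.0602 on the separate channels. In bulk kidney RNA, more cells of a type and more RNA per cell cannot be told apart, nor can fewer cells and less RNA.

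Slc12a1 encodes NKCC2, the carrier that brings sodium, potassium and chloride into the same cells and the target of loop diuretics. Its normalized log2 intensity was 13.34, 13.29 and 13.21 in the control and 13.23, 13.16 and 12.91 in G200. The G200 value was below the control value of its own array each time, while the highest G200 value overlapped the range of the control channels. The log2 ratio was -0.11, -0.13 and -0.31, on average -0.18 ± 0.11 (SD, n = 3) and a 95% interval from -0.36 to -0.01, and it did not pass the adjusted threshold (adjusted p = 0.0892 from limma). The sign turned with the scaling: the mean was 0.63 with median centring (adjusted p = 0.0311 from limma) and 0.99 without dye normalization (adjusted p = 0.0102 from limma). Over the 15 alternatives its adjusted p ran from 0.0102 to 0.429.

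Umod and Slc12a1 can be set against each other on the same array. The log2 ratio of Umod minus that of Slc12a1 was 1.10, 0.94 and 1.13, a mean of 1.05 ± 0.10 (SD, n = 3). The pair was chosen after its values were seen, so the difference is a description with no test. A scaling that shifts a whole array cannot move this difference, so median centring and no dye normalization had to agree, both at 1.12. Both ratios were above 0 in those settings. Loess depends on intensity and can move the difference. It was 1.24 with the deposited Feature Extraction log ratio and ran from 1.02 to 1.24 over 13 alternatives.

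Kcnj1 encodes ROMK, the potassium channel through which thick limb and collecting duct cells return potassium to the lumen. The brighter of its 2 probes had log2 ratios of 0.11, -0.03 and 0.19, a mean of 0.09 ± 0.11 (SD, n = 3; limma's adjusted p = 0.36). The 95% interval ran from -0.09 to 0.27, and the signs differed between arrays. The other probe gave 0.30, 0.07 and 0.24. Kcnj1 was called higher with median centring (0.58) and without dye normalization (0.93).

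**Figure D2:**
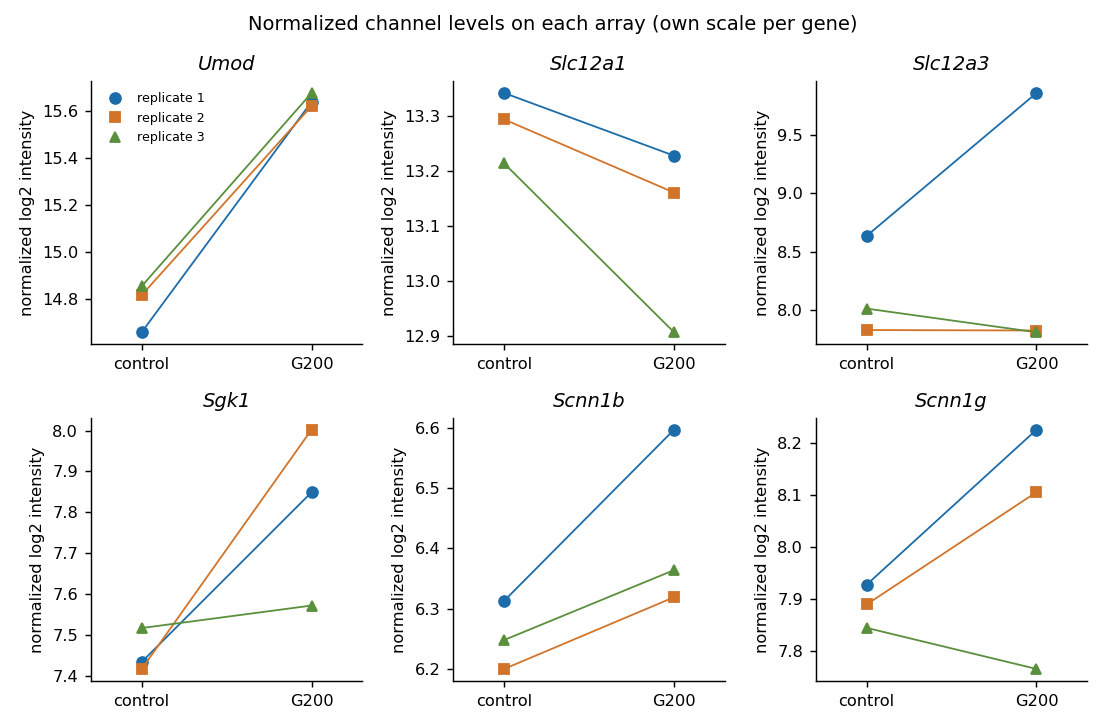
Normalized log2 intensity in the control (Cy3) and G200 (Cy5) channels of each array for 6 genes, each on its own axis, with lines joining the channels of an array. All 3 Umod lines rise by 0.81 to 0.98 and end between 15.62 and 15.68, whereas for Slc12a3 the G200 value of replicate 1, 9.86, stands apart from 7.82 and 7.81.

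A wider list of 13 genes that work beside these carriers in the thick limb moved in both directions. Of 12 tested, 6 rose and 2 fell, where 11.5% of all genes tested were called higher and 26% lower. The median log2 ratio was 0.25 beside -0.05 for all genes. The largest rises were in Egf, the epidermal growth factor precursor made in this part of the nephron, at 0.73 ± 0.33 (SD, n = 3; limma's adjusted p = 0.00807), and in Cldn10, which forms the sodium-selective pores between cells, at 0.63 ± 0.34 (adjusted p = 0.0131). Sorl1, a sorting receptor involved in NKCC2 regulation, followed at 0.47 ± 0.28 (adjusted p = 0.0211). The other 3 rises were in Ppp1r1b at 0.46, the calcium-sensing receptor gene Casr at 0.44 and Cldn16, a claudin of the magnesium and calcium path, at 0.41, 3 genes picked for naming with their values in view.

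The falls were in Cldn14, a claudin that limits the path formed by Cldn16 and Cldn19, at -0.74 ± 0.07 (SD, n = 3; limma's adjusted p = 0.00122) and in Bsnd, which encodes barttin, at -0.33 ± 0.19 (adjusted p = 0.0311). Casr was 0.33, 0.47 and 0.51 on replicates 1, 2 and 3 while Cldn14 was -0.77, -0.66 and -0.79, so each kept its side of 0 on every array. Cldn14 was also below 0 under all 15 alternatives, from -1.99 to -0.22. The fall of Bsnd turned to 0.27 with median centring and to 0.62 without dye normalization. Other probes of these genes did not always show the same: a dimmer Ppp1r1b probe gave -0.57, -0.12 and -0.60, and a dimmer Egf probe gave 0.31, 0.20 and -0.03. The counts of this list were 8 higher and 1 lower with median centring, 8 and 0 without dye normalization, 6 and 1 without replicate 2 and 1 and 1 without replicate 3.

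**Figure D3:**
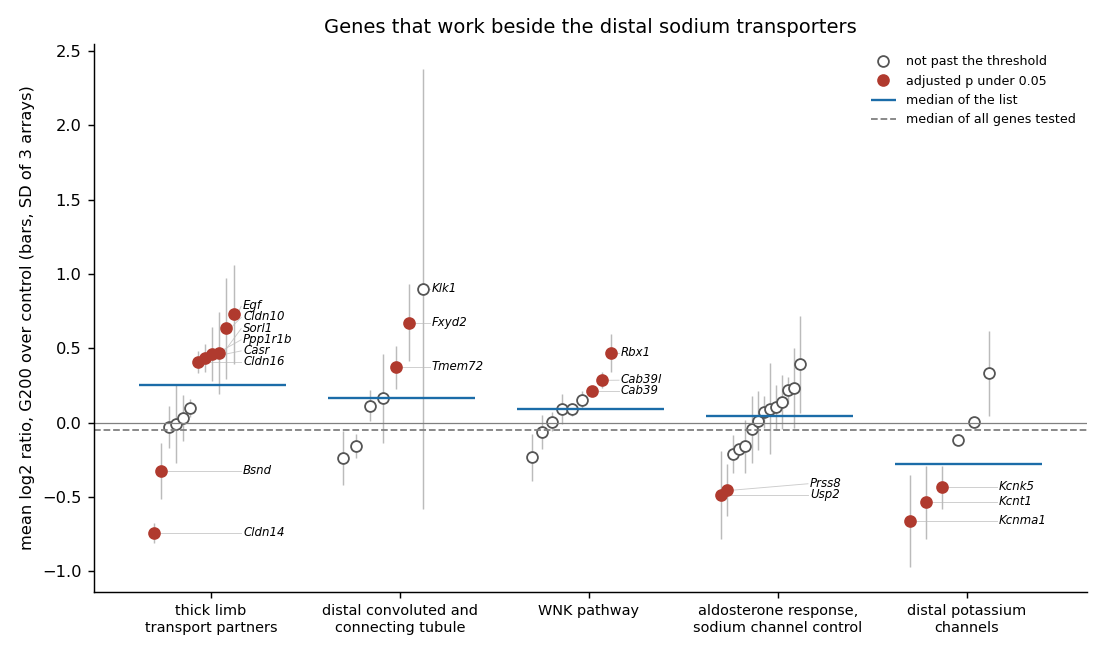
Mean log2 ratio of G200 over control with the SD of 3 arrays for each tested gene of 5 lists around the distal sodium transporters; filled points passed limma's adjusted threshold, blue lines are list medians and the dashed line is the median of all genes (-0.05). Thick limb genes lie on both sides of 0, from -0.74 for Cldn14 to 0.73 for Egf, and with median centring the falls of Bsnd, Usp2, Prss8 and Kcnk5 turn positive.

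Slc12a3 encodes NCC, the thiazide-sensitive sodium chloride carrier of the distal convoluted tubule. Its normalized log2 intensity was 8.63, 7.83 and 8.01 in the control and 9.86, 7.82 and 7.81 in G200 on replicates 1, 2 and 3. Replicate 1 stood above the others in G200 by 2.04 and 2.05, and in the control by 0.81 and 0.62. The values of both colors overlapped, with the control channels counted as 1 sample. The log2 ratio was 1.23, -0.00 and -0.20, a mean of 0.34 ± 0.77 (SD, n = 3; limma's adjusted p = 0.341), with a 95% interval from -0.30 to 0.98. Its SD was at the 99.2nd percentile of all genes tested, and without replicate 1 the mean was -0.10. It was 0.90 with median centring, not called, and 1.25 without dye normalization, called higher. A dimmer probe of the gene, well above background on 0 control and 2 G200 arrays, gave 0.55, -0.06 and 0.10, and the spot intensity less background in G200 was 91 on replicate 1 beside 10 and 22. The array of replicate 1 thus stood highest with both probes.

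The same array stood apart for other genes, which were chosen after their values were seen. Klk1, the tissue kallikrein gene of the connecting tubule, gave 2.60, -0.11 and 0.21. Slc5a2, the glucose carrier SGLT2 of the early proximal tubule, gave 1.59, 0.16 and 0.22. The proximal tubule list as a whole did not share this: the medians of its 13 tested genes were 0.15, 0.10 and 0.12. Its brightest gene, Kap, gave 0.24, 0.77 and 0.12. The podocyte genes Wt1 and Nphs1 gave 1.16, 0.16 and 0.28, and 0.94, 0.04 and 0.24. Control signals of Slc5a2, Wt1 and Nphs1 were near background, at 25 to 34.5 intensity units less background. None of Klk1, Slc5a2, Wt1 and Nphs1 passed the adjusted threshold (adjusted p from 0.071 for Wt1 to 0.192 for Klk1 in limma's test). Without dye normalization all 4 were called higher (Klk1 at 1.79, Slc5a2 at 1.21, Wt1 at 1.04 and Nphs1 at 0.895), as were Wt1 (1.57) and Nphs1 (1.66) with the deposited Feature Extraction log ratio and Wt1 (1.16) with an offset of 0. Over all 14183 genes, 121 had a ratio on replicate 1 at least 1 above the mean of the others, and the median gap was -0.02. For Slc12a3 the gap was 1.33 (99.41st percentile) and for Klk1 2.55 (99.93rd percentile), against 0.17 for Umod. The control of Klk1 was also higher on replicate 1, by 0.713 and 0.605.

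The podocyte list was also highest on replicate 1. All 5 of its genes were tested, 1 rose and 0 fell, beside 11.5% higher and 26% lower over all genes. The count of rises was 2 with median centring, 4 without dye normalization and 0 without replicate 1 or without replicate 3. The summed level of the 5 genes in G200 was 1.62, 1.07 and 1.20 times that of the control on replicates 1, 2 and 3, at 2163, 1415 and 1540 intensity units beside 1332, 1324 and 1288, and Podxl was the brightest. The part of podocyte RNA in the Slc12a3 values was not tested.

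**Figure D4:**
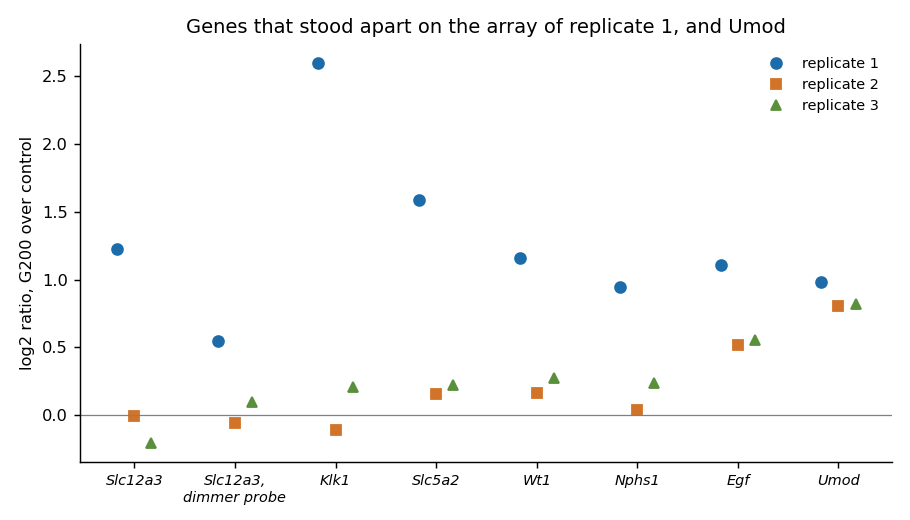
Log2 ratio of G200 over control on each array for both Slc12a3 probes, for 5 further genes chosen after their values were seen, and for Umod. The circle of replicate 1 is the highest point in each column, at 1.23 for the brighter Slc12a3 probe and 2.60 for Klk1, while the 3 points of Umod stay between 0.81 and 0.98.

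Other genes of the distal convoluted and connecting tubule were hard to measure. Of 14 listed, 7 were tested, 2 rose and 0 fell, beside 11.5% higher and 26% lower over all genes. The median log2 ratio was 0.16. The count of rises was 5 with median centring, 6 without dye normalization and 0 without replicate 3. Fxyd2, the gamma subunit of the sodium pump, was 0.89, 0.38 and 0.75, a mean of 0.67 ± 0.26 (SD, n = 3; limma's adjusted p = 0.00598), and its other probe gave 0.87, 0.35 and 0.87. Tmem72, a membrane protein gene with strong kidney expression, had a mean of 0.37 ± 0.15 (adjusted p = 0.0149). Pvalb and Trpm6, defining markers of the distal convoluted tubule, were not tested, since Pvalb was not well above background on any array and no probe was matched to Trpm6. Of Slc12a3, Pvalb and Trpm6, Slc12a3 alone was tested. The thick limb markers Slc12a1, Umod and Kcnj1 were well above background in both colors on all arrays. Calb1, the calcium-binding protein of the same segment and the connecting tubule, was not tested, and its probe gave 0.97, -0.08 and 0.17.

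Of the kinases that switch these carriers on, Wnk1, Stk39 and Oxsr1 were tested and did not pass the threshold. Wnk1 had log2 ratios of 0.02, 0.13 and -0.03, a mean of 0.04 ± 0.08 (SD, n = 3; limma's adjusted p = 0.676) with a 95% interval from -0.13 to 0.21. Wnk4 was well above background on 1 control array and 0 G200 arrays and was not tested, and its probe gave -0.02, -0.09 and -0.04. Downstream, Stk39, which encodes SPAK, had a mean of 0.15 ± 0.06 (adjusted p = 0.114), and Oxsr1, which encodes OSR1, had a mean of 0.01 ± 0.06 (adjusted p = 0.94). These values depend on the scaling: Stk39 was called higher with median centring (0.62), and without dye normalization Stk39 (0.97), Wnk1 (0.575) and Oxsr1 (0.66) were.

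Of the 14 genes in a WNK pathway list 9 were tested, and their median was 0.09. Of these, 3 rose and 0 fell, beside 11.5% higher and 26% lower over all genes. Rbx1, the RING subunit of cullin ubiquitin ligases, was 0.59, 0.34 and 0.48, a mean of 0.47 ± 0.13 (SD, n = 3; limma's adjusted p = 0.0064). Cab39l and Cab39, which encode the MO25 scaffold proteins that activate SPAK and OSR1, had means of 0.28 ± 0.05 (adjusted p = 0.019) and 0.21 ± 0.02 (adjusted p = 0.044), higher in 3 of 3 arrays each. Cul3, the cullin that marks WNK kinases for breakdown, was not tested, with 0.35, 0.00 and 0.19 on replicates 1, 2 and 3. No probe was matched to its adaptor genes Klhl3 and Klhl2. The count of rises in this list was 5 with median centring, 9 without dye normalization, 1 without replicate 1, 2 without replicate 2 and 0 without replicate 3.

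The epithelial sodium channel has 3 subunits, encoded by Scnn1a, Scnn1b and Scnn1g, of which Scnn1g and Scnn1b are neighboring genes in the rat RefSeq annotation (GRCr8). Scnn1a was spotted 10 times on each array, and its log2 ratio was 0.24, 0.07 and 0.11, a mean of 0.14 ± 0.09 (SD, n = 3; limma's adjusted p = 0.16). Scnn1b gave 0.28, 0.12 and 0.12, a mean of 0.17 ± 0.10 (adjusted p = 0.0996). Scnn1g, also spotted 10 times, gave 0.30, 0.22 and -0.08, a mean of 0.15 ± 0.20 (adjusted p = 0.246). The ratios of Scnn1a and Scnn1b were above 0 on every array, those of Scnn1g on replicates 1 and 2, and none passed the threshold, with upper 95% limits of 0.31, 0.34 and 0.37.

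Replicate spots give the spread within an array. For Scnn1g the SD among spots of an array was 0.05 to 0.08, and the spots ran from 0.24 to 0.41 on replicate 1 and from -0.18 to 0.01 on replicate 3. For Scnn1a the spot SD was 0.08 to 0.10, and its signals were low, at 27.2 to 28.7 intensity units less background in the control and 21.6 to 65.7 in G200. Scnn1b was as close to background, at 25.5 to 27.0 and 22.0 to 66.0 units. With the deposited Feature Extraction log ratio, whose background correction and dye normalization both differ from those used here, the means were 0.62 for Scnn1a (adjusted p = 0.0152 from limma) and 0.92 for Scnn1b (adjusted p = 0.00538), and with an offset of 0 Scnn1b was 0.495 (adjusted p = 0.0307). Without dye normalization Scnn1a was 0.495 and Scnn1b 0.52, with neither gene called. Over the 15 alternatives the adjusted p ran from 0.0152 to 0.513 for Scnn1a and from 0.00538 to 0.379 for Scnn1b. Scnn1g, a brighter probe, was called with median centring (0.65) and without dye normalization (1.01) only.

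Sgk1, the aldosterone-induced kinase that keeps the channel at the membrane, had a normalized log2 intensity of 7.43, 7.42 and 7.52 in the control and 7.85, 8.0 and 7.57 in G200. The G200 values lay above those of all control channels, on replicate 3 by little. The log2 ratio was 0.42, 0.59 and 0.05, a mean of 0.35 ± 0.27 (SD, n = 3; limma's adjusted p = 0.0479), close to the threshold. It stayed positive under all 15 alternatives, from 0.24 to 1.15, and was called under 7 of them. Without replicate 1 the adjusted p was 0.105 and without replicate 2 it was 0.165.

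Genes that respond to aldosterone or act on the sodium channel were listed beside Sgk1. Of 22 listed, 14 were tested, 0 rose and 2 fell, beside 11.5% higher and 26% lower over all genes. Their median was 0.04, and the count of rises was 8 with median centring and 12 without dye normalization. The falls were in Usp2, a deubiquitinating enzyme that acts on the sodium channel, at -0.49 ± 0.30 (SD, n = 3; limma's adjusted p = 0.0216), and in Prss8, the channel-activating protease prostasin, at -0.46 ± 0.17 (adjusted p = 0.0102). Both turned positive with median centring, at 0.13 and 0.33, and without dye normalization, at 0.48 and 0.68, where Prss8 was called higher. Neither was called without replicate 3.

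The receptor of aldosterone itself did not pass. Nr3c2, the mineralocorticoid receptor gene, was 0.33, 0.13 and -0.03, a mean of 0.14 ± 0.18 (SD, n = 3; limma's adjusted p = 0.24). Hsd11b2, whose enzyme protects that receptor from glucocorticoids, was 0.44, -0.13 and -0.03 (adjusted p = 0.567), highest on replicate 1 as Slc12a3 was. Tsc22d3, the steroid-induced gene that encodes GILZ, was 0.40, 0.38 and -0.08 (adjusted p = 0.141), above 0 on replicates 1 and 2. Hsd11b2 and Tsc22d3 were called higher with median centring (0.83 and 0.88) and without dye normalization (1.19 and 1.23), and Nr3c2 in the latter setting (0.76). No probe was matched to Nedd4l, the ubiquitin ligase that SGK1 restrains.

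A list drawn up for other potassium channels of the distal nephron was kept apart from ROMK. In bulk kidney RNA the segment that a value came from cannot be told, and its genes may be expressed elsewhere too. Of 10 listed, 6 were tested, 0 rose and 3 fell, beside 11.5% higher and 26% lower over all genes. Their median was -0.28, and 0 of them were called lower with median centring, without dye normalization or without replicate 3. Kcnma1, the pore of the large-conductance channel that secretes potassium at high flow, was -0.99, -0.37 and -0.63, a mean of -0.66 ± 0.31 (SD, n = 3; limma's adjusted p = 0.00914). Kcnt1 was -0.54 ± 0.25 (adjusted p = 0.0107) and Kcnk5 -0.44 ± 0.14 (adjusted p = 0.00904), each lower in 3 of 3 arrays. The signs of Kcnk5 (0.15) with median centring and of Kcnt1 (0.03) and Kcnk5 (0.51) without dye normalization turned positive.

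**Figure D5:**
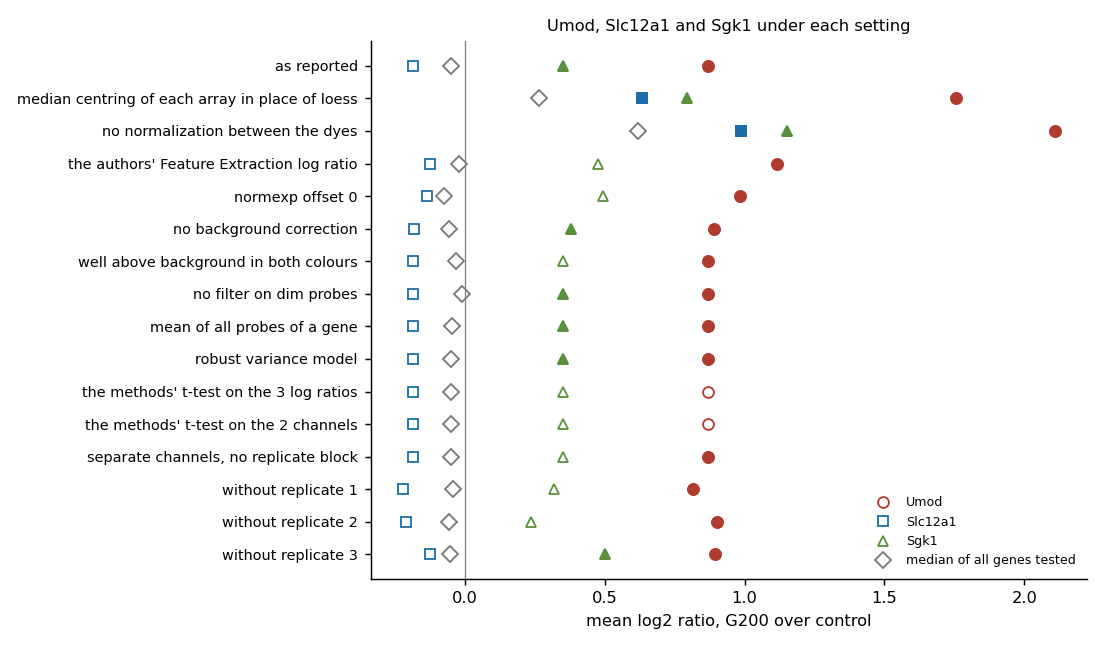
Mean log2 ratio of Umod, Slc12a1 and Sgk1, with the median of all genes tested (diamonds), as reported and under 15 alternative settings; filled symbols passed an adjusted p under 0.05. Umod stays between 0.81 and 2.11, whereas Slc12a1 lies above 0 with median centring (0.63) and without dye normalization (0.99), settings in which the all-gene median moves to 0.27 and 0.62.

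Markers of other cells in the tissue were measured the same way, and their counts stand beside 11.5% called higher and 26% lower over all genes. The principal cell list, whose cells hold the sodium channel, had 7 of 8 genes tested, 1 higher and 0 lower, with a median of -0.06. Its summed G200 level was 0.820, 1.00 and 0.737 times that of the control, with Aqp2 the brightest. The intercalated cell list had 7 of 8 tested, 1 higher and 1 lower, with a median of 0.06. The proximal tubule list had 13 of 14 tested, 3 higher and 2 lower (median 0.06), and the list of inner medulla and thin limb had 7 of 9 tested, 1 higher and 2 lower (median 0.03). The lists of endothelium (7 tested, 0 higher and 1 lower, median -0.07), stroma and juxtaglomerular cells (8 tested, 2 higher and 1 lower, median 0.05) and macrophages and lymphocytes (6 tested, 1 higher and 1 lower, median -0.00) had medians close to 0 as well. These counts depend on the scaling between the dyes. With median centring the rises were 5 for principal cells, 5 for intercalated cells, 9 for the proximal tubule, 2 for inner medulla and thin limb, 2 for endothelium, 6 for stroma and juxtaglomerular cells and 1 for macrophages and lymphocytes, and without dye normalization they were 5, 5, 11, 4, 3, 6 and 4 in the same order, with 0 falls in each of these lists in both settings. Single replicates mattered too. Without replicate 3 there were 0 rises in 5 of the 7 lists (intercalated cells and stroma had 1 each), and the falls were 0 for the proximal tubule, 1 for inner medulla and thin limb and 0 for macrophages and lymphocytes. Without replicate 2 the principal cell list had 0 rises and 2 falls, the proximal tubule 2 and 1, inner medulla and thin limb 1 and 0, endothelium 0 and 2, and macrophages and lymphocytes 1 and 0. Without replicate 1 the principal cell list had 0 rises and the list of inner medulla and thin limb 1 fall. Slc26a4, Slc5a12, Cd163, Cd3e and Cd79b were too dim to be tested, and no probe was matched to Fxyd4, Pappa2, Sptssb or Hba-a2.

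Lists of red cells and liver differed more between the arrays. For red cells 5 of 6 genes were tested, 0 were higher and 1 lower (2 lower without replicate 1, and 0 lower without replicate 3 and under 8 other alternatives, median centring among them), and the summed level was 1.04, 0.862 and 0.371 times the control on replicates 1, 2 and 3, with Hba-a1 the brightest. All 12 liver genes were tested and limma called all lower, with a median of -3.03. The count was 11 without replicate 2, and 0 with the robust variance model and with either form of the methods' t-test. Their summed level in G200 was 45480, 18670 and 7151 intensity units beside 159500, 188700 and 198900 in the control. Tf was the brightest averaged over both colors and all arrays, and Ttr was brighter in the control. The ratio of Umod was 0.98, 0.81 and 0.82 on the same arrays, and that of Slc12a1 -0.11, -0.13 and -0.31. The part of red cell and liver transcripts in the values of the distal genes was not tested.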

How the data were processed

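RNA of control rats (Cy3) and G200 rats (Cy5) was hybridized to 3 Agilent arrays, and the authors deposited the median intensity of each spot and its background. The deposited log10 ratio, which Feature Extraction (11.5.1.1 per the file headers, 9.3.2.1 in the submitters' processing notes) computed from background-subtracted, dye-normalized signals, was an alternative. Here the deposited intensity was corrected with normexp (offset 50, all spots) and normalized by loess (span 0.3, control spots at weight 0) in limma 3.58.1 under R 4.3.3. Outlier-marked spots (635, 736 and 945 per array) were removed and replicate spots averaged. Of 30367 probes, 18355 (60.4%) matched a symbol in the RefSeq table of GRCr8. A probe was kept if it exceeded background clearly on every array in the same color (15651 probes), and the brightest stood for its gene. Mean log2 ratios were tested against 0 (lmFit, eBayes, two-sided), and p-values were adjusted over all genes by Benjamini and Hochberg's method, with a threshold of 0.05. Channel levels were further scaled between arrays (Aquantile). The steps were tested on simulated data. Control and G200 are paired by hybridization to the same array. The members and lists were chosen with earlier results of these data known. Results of 2 listed genes are not reported here, and the list counts leave them out. Of each wider list, up to 3 rises and 3 falls past the threshold and of 1 sign on all arrays were named, and 8 regulators whatever their values. Alternatives changed the dye normalization, background correction, filter, probe rule, variance model, test, pairing and replicates.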

Additional observations from a re-analysis of the deposited data

How the results depend on the processing

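Of 135 values for the 9 tested genes under 15 alternatives, 112 kept their direction and side of the threshold, 10 lost the call, 9 gained one and 4 turned sign. For the other genes named the numbers were 313, 66, 15 and 11 of 405. The Umod minus Slc12a1 difference was added after seeing the data. The cause of the changes below was not tested.

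With median centring 6228 of 14183 genes were called in place of 5321, and 79.6% of them were higher in place of 30.6%. In that setting 5 of the 9 genes were called higher and their median was 0.63. The sign turned for Slc12a1 (0.63), Bsnd (0.27), Usp2 (0.13), Prss8 (0.33) and Kcnk5 (0.15). With no normalization between the dyes 8314 genes were called in place of 5321 (96.3% higher), 7 of the 9 were higher and their median was 0.99. The sign turned for Slc12a1 (0.99), Bsnd (0.62), Usp2 (0.48), Prss8 (0.68), Kcnt1 (0.027) and Kcnk5 (0.51). The median of the 9 genes was 0.41 with the deposited Feature Extraction log ratio and 0.36 with an offset of 0.

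The methods' t-test called 2 genes on the log ratios (0% higher) and 360 on the channels (18.3% higher), with 0 of the 9 genes higher in either. With the filter on both colors 1 of the 9 was called higher. The array is the pairing of the reported test, and with separate channels and no replicate block 1 was called higher and 4100 genes in all. That fit and the t-test on the channels take the 3 control channels as 3 replicates, although the control was counted as 1 sample. Leaving out 1 replicate gave 1580 to 4978 called genes, 1 to 2 of the 9 genes higher and a median of 0.08 to 0.20. With 1 replicate left out the means ran from -0.10 to 0.61 for Slc12a3, from -0.027 to 0.033 for Oxsr1 and from -0.082 to 0.21 for Hsd11b2, each negative without replicate 1, and from -0.006 to 0.074 for Wnk1, negative without replicate 2. No setting called any of the 9 genes lower. The signals of Scnn1a, Scnn1b and Wnk4 were near background. With the robust variance model 0 of 12 liver genes were called lower, in place of 12.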
